A study of Mus musculus with 8 samples.

Results

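The translation initiation and elongation factors are the proteins that load ribosomes onto mRNA and carry them along it. Their genes were taken from the deposited tables by symbol, as names starting with Eif1 to Eif6 or with Eef1 or Eef2, leaving out the eIF2-alpha kinases, Eif2s1, Eif2s3x, Eif2s3y and Eif1ax. This gave 58 genes of the 29955 names in each table, and 8 symbols that fit the pattern were left out. Of the 58, 4 (Eif2c1 to Eif2c4) are older symbols of the Argonaute genes, which act in silencing by small RNAs and are kept apart below. Bone marrow cells came from CD57BL6/J mice, as the labels spell the strain, that were wild type (WT) or knockout for the necroptosis kinase Ripk3 (Ripk3-/-, labeled Ripk3-KO). The cells were sorted without lineage markers as LSK cells (Sca1+ and Kit+, which hold the hematopoietic stem and multipotent progenitor cells) or as LK cells (Kit+, mainly committed myeloid progenitors). Each genotype and sort gave 2 mRNA-seq libraries, 4 groups in all, with 9782166 to 16280811 reads on genes. The labels state that no treatment was given and name no age, whereas the study's text describes fractionated low-dose X-irradiation of both genotypes before the cells were collected. The labels do not say whether replicates 1 and 2 came from separate mice, so p-values measure the spread between libraries, which may be technical.

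Translation starts when eIF2, carrying GTP and the initiator tRNA, joins the small ribosomal subunit together with eIF1, eIF1A, eIF3 and eIF5. The eIF4 factors recruit this complex to capped mRNA, since eIF4E binds the cap, eIF4G is the scaffold and eIF4A unwinds the leader. Once the start codon is found, eIF5B joins the subunits, eEF1A delivers aminoacyl-tRNAs, the eEF1B complex recharges eEF1A with GTP, and eEF2 moves the ribosome on by a codon. Hematopoietic stem cells are known for a low rate of protein synthesis compared with more committed progenitors. mRNA levels of factors do not measure that rate, and fewer cells of a type cannot be told apart from less RNA per cell in bulk libraries.

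Levels within LSK or within LK are given as CPM, the deposited read counts scaled to library size with a TMM factor set separately for LSK and for LK. They are not divided by length. Ripk3 itself was 162 and 168 CPM in the WT LSK libraries against 3.38 and 1.08 in Ripk3-/- LSK, and 144 and 149.7 against 16.2 and 10.6 in LK, so both knockout groups lay far below WT. The labels of the sorted cells held for Ly6a, which encodes Sca1 and was 141 to 237 CPM in LSK but at most 4.12 in LK libraries. All 4 WT libraries carried Xist reads and all 4 Ripk3-/- libraries carried Y-linked reads, so genotype and sex cannot be told apart in any comparison of genotype. The summed level of 8 mature neutrophil markers ran from 704 to 769 CPM in WT LSK and from 2339 to 2766 in Ripk3-/- LSK, where 7 of the 8 passed the test as higher, and from 774 to 781 against 1679 to 1683 in LK, where 5 passed, and none of the 8 was at 0 in a whole group. The part of these markers' rise in the differences below was not tested.

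In LSK cells 4 of the 53 members tested passed as changed between genotypes, all of them lower in Ripk3-/- cells. They were Eif1, Eef1a1, Eef1g and Eif4a1, with Ripk3-/- means of 0.404, 0.541, 0.602 and 0.593 of the WT mean. Limma called 1.27% of all 16817 tested genes lower and 0.892% higher. Over the tested members 27 were higher and 26 lower, and their median log2 fold change was 0.004 beside -0.009 over all tested genes. Quantile normalization called 4 members lower and 1 higher (Eif4g2), beside 1.4% and 0.993% of all genes, and DESeq2 called 5 lower and 1 higher (Eif4enif1), beside 2.14% and 1.5%. Without regard to a test, both Ripk3-/- LSK libraries lay below both WT libraries for 16 members, or 30.2%, against 23.2% of all tested genes. They lay above both for 10 members, or 18.9%, against 21.4%.

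The called genes include Eef1a1, the member with the most reads, so their change weighed on the total. Members held 2.16% and 2.17% of all reads in the WT LSK libraries and 1.76% and 1.69% in the Ripk3-/- LSK libraries. The 4 genes called in LSK accounted for 0.746% and 0.753% of the reads in WT and 0.393% and 0.387% in Ripk3-/- LSK cells. The other 54 members held 1.42% and 1.42% in WT against 1.37% and 1.30%. In LK cells the members' share was 2.08% and 2.27% for WT and 2.11% and 2.13% for Ripk3-/- cells, within the WT range. The 4 genes were chosen for their change in LSK, so their shares there are a description.

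**Figure D1:**
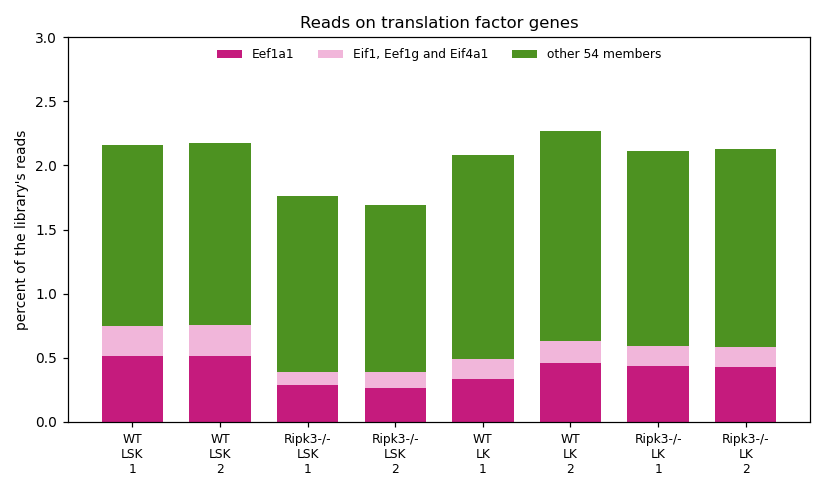
Percent of each library's reads on the 58 member genes (y axis), stacked as Eef1a1, the other genes called in LSK (Eif1, Eef1g and Eif4a1) and the other 54 members, for the 8 libraries (x axis). The Ripk3-/- LSK bars, at 1.76% and 1.69%, are the shortest, and most of the gap to WT LSK lies in the lower parts of the bars.

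The eEF1 genes encode the factors that bring aminoacyl-tRNAs to the ribosome, and 2 of the 5 tested fell in Ripk3-/- LSK cells. Eef1a1, the GTPase that carries the tRNA, stood at 4966 and 5272 CPM in the WT LSK libraries and 2902 and 2636 in the Ripk3-/- LSK libraries. The groups did not overlap, and the log2 fold change was -0.89 (SE 0.13, n = 2 per group, limma adjusted p = 6.0e-04). Eef1g, a structural subunit of the eEF1B exchange complex, went from 651 and 642 CPM to 401 and 377, again without overlap. Its log2 fold change was -0.73 (SE 0.15, limma adjusted p = 0.010). The exchange subunits Eef1b2 and Eef1d did not pass. Eef1b2 was 547 and 689 CPM in WT and 571 and 664 in Ripk3-/- LSK cells, and Eef1d was 252 and 295 against 259 and 299.8, with overlapping groups and log2 fold changes of 0.0036 and 0.03. Eef1e1, a small protein of the tRNA synthetase complex, had a log2 fold change of 0.34 (adjusted p = 0.48), and Eef1a2, the muscle and neuron paralog of Eef1a1, was listed at 0.40 and 0.41 CPM in WT and at 0 in both Ripk3-/- LSK libraries, too low to be tested. Eef1a1 lost its call without replicate 2 of WT LSK (adjusted p = 0.086), and Eef1g lost it without any one of the LSK libraries (adjusted p from 0.055 to 0.091).

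Eef2, the translocase, is another very abundant elongation factor and did not pass. Its level was 1715 and 1791 CPM in WT LSK and 2001 and 1446 in Ripk3-/- LSK cells, so that the WT pair lay between the Ripk3-/- pair and the log2 fold change was -0.04 (SE 0.16, adjusted p = 0.92). Eef2k, the kinase that inhibits eEF2, was 159.8 and 154 CPM in WT and 249 and 172 in Ripk3-/- LSK cells. Both Ripk3-/- values were higher, but the log2 fold change of 0.39 did not pass (SE 0.20, adjusted p = 0.32).

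Eif1, which guards the choice of the start codon on the small subunit, had the largest called change of all members. It measured 1181 and 1336 CPM in the WT LSK libraries against 461 and 556 in the Ripk3-/- LSK libraries, a log2 fold change of -1.31 (SE 0.15, limma adjusted p = 1.7e-05). The gap between the groups was wider than that within either of them. Of the 19 alternatives its call was lost only when the prior variance of limma was given no trend (adjusted p = 0.082), a setting under which no member was called in LSK. The paralog Eif1b was 94.2 and 128 CPM in WT and 121 and 126 in Ripk3-/- LSK cells, with overlapping groups. Eif1a, which works beside eIF1 in scanning, measured 159 and 199 against 184 and 182 CPM, and Eif1ad, a protein with an eIF1A-like fold, 128 and 145 against 136 and 179. Their log2 fold changes were 0.17, 0.04 and 0.20, and none passed (adjusted p from 0.63 to 0.93).

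Of the 10 tested members of the cap-binding and eIF4F group, Eif4a1 alone passed in LSK. This RNA helicase, which opens the mRNA leader, was 451 and 413 CPM in WT and 236 and 276 in Ripk3-/- LSK cells. The groups did not overlap and the log2 fold change was -0.75 (SE 0.17, limma adjusted p = 0.018). It failed without any one of the LSK libraries (adjusted p from 0.0504 to 0.13) and with no filter on low values (adjusted p = 0.061). Its close paralog Eif4a2 was 255 and 243 CPM against 216 and 256, overlapping, with a log2 fold change of -0.08. The difference between the paralogs was not tested. The cap-binding protein Eif4e was 304 and 299 CPM in WT and 258 and 224 in Ripk3-/- LSK cells (log2 fold change -0.32, adjusted p = 0.32), and its relatives Eif4e2 and Eif4e3 had log2 fold changes of 0.11 and 0.52. The scaffold genes Eif4g1 and Eif4g3 had log2 fold changes of 0.18 and -0.11, and the helicase cofactors Eif4b and Eif4h 0.16 and 0.43. Eif4g2, a scaffold that lacks the eIF4E binding site, was 657 and 511 CPM in WT and 768 and 828 in Ripk3-/- LSK cells. Both Ripk3-/- libraries were higher (log2 fold change 0.46, adjusted p = 0.12), and with quantile normalization the adjusted p was 0.047.

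**Figure D2:**
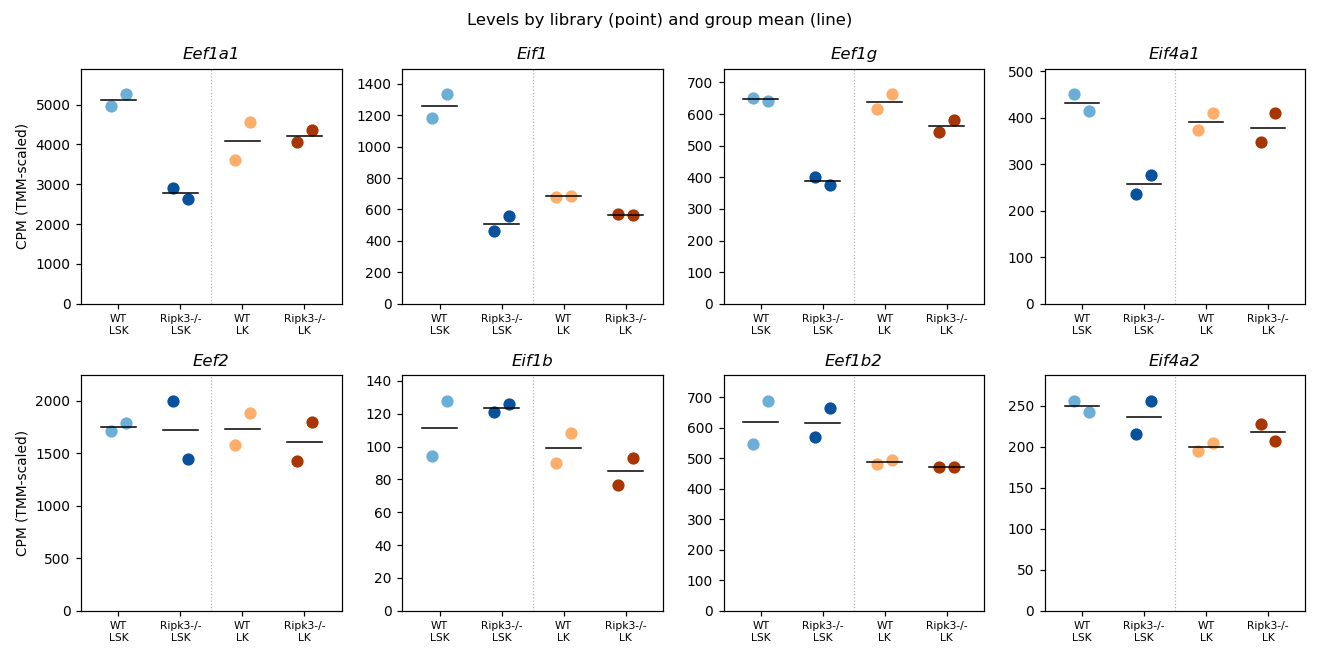
Level in CPM (y axis, from 0, scaled within LSK and within LK) of 8 members, with 1 point per library and a line at the mean of each group on the x axis. The upper panels hold the 4 members called in LSK, where both Ripk3-/- LSK points lie below both WT LSK points (for Eif1 461 and 556 against 1181 and 1336), and the lower panels hold 4 partners or paralogs whose LSK groups overlap.

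To show the genes behind these values, 60 bases around the start of transcription recorded by RefSeq (GRCm38.p6) follow for the called members with an entry and for Eef2, 30 bases on either side, 5′ to 3′, with the longest unbroken run of C or T in capitals. Many translation factor mRNAs are known to start with such a pyrimidine tract, which ties their translation to mTOR. The windows lie at chr9:78481695-78481754 on the minus strand for Eef1a1, chr11:100319919-100319978 on the plus strand for Eif1, chr11:69672394-69672453 on the minus strand for Eif4a1 and chr10:81176601-81176660 on the plus strand for Eef2.
Eef1a1: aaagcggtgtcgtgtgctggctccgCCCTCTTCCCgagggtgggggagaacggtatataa
Eif1: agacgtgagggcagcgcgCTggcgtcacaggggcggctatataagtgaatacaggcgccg
Eif4a1: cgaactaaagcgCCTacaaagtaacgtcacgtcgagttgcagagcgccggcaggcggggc
Eef2: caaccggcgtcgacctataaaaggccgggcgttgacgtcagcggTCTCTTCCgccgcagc
The run was 10 bases long in Eef1a1, 2 in Eif1, 3 in Eif4a1 and 8 in Eef2. Of all 32851 windows, 10.9% held a run of at least 10 and 22.9% one of at least 8. The windows shown for called members did not share a long run. The run could lie anywhere in the window. Relative to the recorded start it began at position -5 in Eef1a1, -12 in Eif1, -18 in Eif4a1 and 15 in Eef2. Whether the mRNAs begin at the recorded start, or with a pyrimidine tract, was not tested. The letters TATATAA, searched on either strand after they were noticed in the printed windows, occurred in Eef1a1 and Eif1 and in no other of the 44 member genes with a window, and in 0.636% of all windows. The letters TATAAA, searched alike, occurred in Eef2 and in 2.92% of all windows. In Eef1a1 and Eif1 the letters TATATAA lay after the recorded start, and in Eef2 the letters TATAAA lay before it. These matches describe the recorded windows only.

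eIF3 is the largest initiation factor and holds the small subunit ready for mRNA. None of its 13 subunit genes passed in LSK, where 7 were lower and 6 higher in Ripk3-/- cells, with a median log2 fold change of -0.09. Eif3c and Eif3d had the largest differences, in opposite directions. Eif3c was 377 and 357 CPM in WT and 283 and 234 in Ripk3-/- LSK cells (log2 fold change -0.51, SE 0.17, adjusted p = 0.12), while Eif3d, whose product can bind caps itself, was 105 and 133 against 173 and 156 CPM (log2 fold change 0.47, SE 0.21, adjusted p = 0.24). For both, the genotypes did not overlap. The core subunit Eif3a was 327 and 346 CPM against 357 and 364, and Eif3e 361 and 335 against 246 and 339, with log2 fold changes of 0.10 and -0.27. The other 9 subunits lay between -0.44 for Eif3j and 0.11 for Eif3f.

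The members around eIF2 include its beta subunit Eif2s2 and the 5 genes of eIF2B, the exchange factor that the integrated stress response inhibits. None of the 8 tested genes of this group passed in LSK, with 4 lower and 4 higher. Among the eIF2B genes the log2 fold change was 0.12 for Eif2b1, -0.08 for Eif2b2, -0.48 for Eif2b3, -0.04 for Eif2b4 and 0.48 for Eif2b5. The catalytic subunit Eif2b5 ranged most widely between libraries, at 79.9 and 51.1 CPM in WT and 121 and 66.2 in Ripk3-/- LSK cells, and the groups overlapped. Eif2s2 was 107 and 122 CPM in WT and 75.2 and 101 in Ripk3-/- LSK cells (log2 fold change -0.39, adjusted p = 0.36). Eif2d, which can place initiator tRNA without eIF2, had a log2 fold change of 0.85 that rested on 1 library, since WT LSK was at 0.298 and 3.00 CPM and Ripk3-/- LSK at 3.38 and 2.84. Without replicate 1 of WT LSK it was 0.03.

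The late factors and the regulators of eIF4E gave no call in LSK either. Eif5a, whose hypusine-bearing product helps ribosomes over difficult peptide bonds, was 2639 and 2905 CPM in WT and 2155 and 1866 in Ripk3-/- LSK cells. The groups did not overlap, and the log2 fold change of -0.47 (SE 0.14) had an adjusted p of 0.083 with limma, 0.044 with DESeq2 and 0.040 with median-centered libraries. Eif6, which keeps the ribosomal subunits apart, was 291 and 299 CPM against 254 and 199 (log2 fold change -0.39, adjusted p = 0.27). The GTPase-activating factor Eif5 and the joining factor Eif5b had log2 fold changes of 0.14 and 0.20, and Eif5a2, the rare paralog of Eif5a, had one of 0.23 at only 5.16 to 7.63 CPM. Of the eIF4E inhibitors, Eif4ebp1 was 156 and 221 CPM in WT and 145 and 133 in Ripk3-/- LSK cells (log2 fold change -0.41, adjusted p = 0.33), Eif4ebp2 stayed between 9.58 and 14.1 CPM, and Eif4ebp3 was listed at 0 in all 4 LSK libraries. Eif4enif1, which shuttles eIF4E into the nucleus, was 42.5 and 36.7 CPM in WT and 74.3 and 73.2 in Ripk3-/- LSK cells. Its log2 fold change of 0.88 (SE 0.25) was the highest among members and had an adjusted p of 0.067 with limma and 0.024 with DESeq2. Eif4a3, the helicase of the exon junction complex, had a log2 fold change of -0.35 (adjusted p = 0.26).

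**Figure D3:**
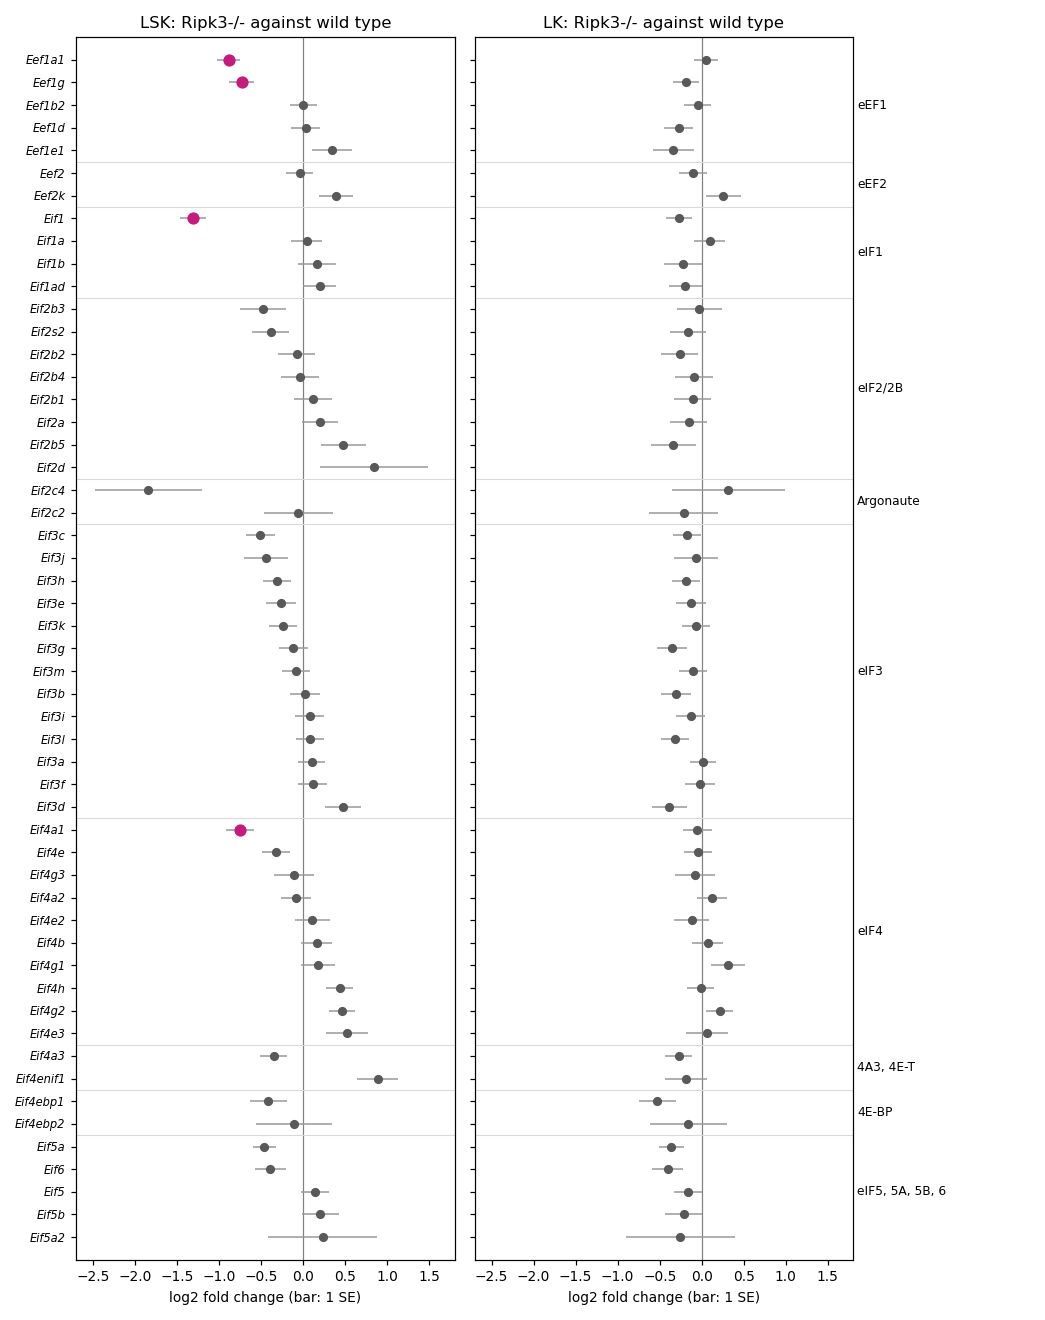
Log2 fold change of Ripk3-/- against WT cells (x axis, bars 1 SE of the limma fit, 2 libraries per group) for the 53 members tested in LSK (left) and the 52 of them tested in LK (right), in rows by role and ordered by the LSK value. Larger colored points mark an adjusted p under 0.05, reached by Eef1a1, Eef1g, Eif1 and Eif4a1 in LSK and by none in LK, where 42 of 52 points lie left of 0.

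The 4 members called in LSK are also genes with many near-identical pseudogenes, counted here over all pseudogene types. GENCODE holds 20 for Eif1, 18 for Eef1a1, 5 for Eef1g and 4 for Eif4a1, that match over 200 bases or more at 90% identity or better. Of the 7 tested members with at least 4 such copies 4 passed in LSK, and the other 3 (Eif1a, Eif3e and Eif5) had log2 fold changes of 0.04, -0.27 and 0.14. None of the 17 members with 1 to 3 copies and none of the 29 without a copy passed. The cut at 4 equals the count of Eif4a1, the called member with the fewest copies. No call could therefore fall below it, and the split is a description only. The 7 were also abundant, at 179 to 5119 CPM in WT LSK cells. Gm16378, a pseudogene of Eif1 listed in the tables, was 49.4 and 59.4 CPM in WT LSK and 3.94 and 4.01 in Ripk3-/- LSK cells, a log2 fold change of -3.47 (SE 0.34, limma adjusted p = 2.9e-06). The LK values were 38.2 and 39.2 CPM for WT and 33.6 and 30.6 for Ripk3-/- cells. Gm6900, another Eif1 copy, went from 11.0 and 13.3 to 1.45 and 0.782 CPM in LSK cells (log2 fold change -2.65, adjusted p = 0.014), a call lost without any one of the LSK libraries (adjusted p from 0.057 to 0.10). Their fold changes were larger than that of Eif1, a difference that was not tested. Gm6548, a copy of Eef1a1, was 47.9 and 48.7 CPM in WT against 41.6 and 38.7, with a log2 fold change of -0.26 that did not pass (adjusted p = 0.67). Reads that fit a gene and its copies cannot be told apart here, so the values of all 24 tested members with at least 1 copy are uncertain to that extent, whether called or not. The tables list 83 processed pseudogenes, and of the 43 tested in LSK 4 were called lower and 0 higher. Of all tested genes 1.27% were called lower and 0.892% higher. The median log2 fold change of these pseudogenes was -0.32, against -0.009 over all tested genes. Gm16378 and Gm6900 may be among the 4. The 83 pseudogenes took 0.0388% and 0.0380% of the reads in WT LSK and 0.0198% and 0.0278% in Ripk3-/- LSK libraries. The part of pseudogene reads in the members' changes was not tested.

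**Figure D4:**
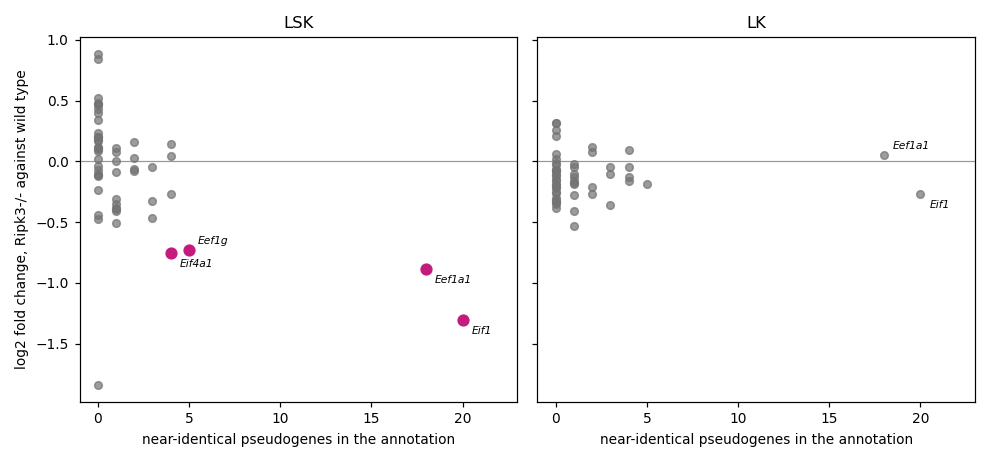
Number of near-identical pseudogenes of any type in GENCODE (x axis) against the log2 fold change of Ripk3-/- against WT (y axis) for the members tested in LSK (left) and LK (right), with those at an adjusted p under 0.05 colored. Eif1 and Eef1a1, with 20 and 18 copies, lie at -1.31 and -0.89 in LSK but at -0.27 and 0.05 in LK.

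In LK cells none of the 52 tested members passed with limma, edgeR or DESeq2. Limma called 0.373% of all 13949 tested genes lower and 0.1% higher in Ripk3-/- cells, and 3 members, all lower, had an unadjusted p under 0.05, which is 5.77% of members beside 6.56% of all tested genes. Small differences in 1 direction were frequent, since 42 of 52 members (80.8%) were lower in Ripk3-/- LK cells against 49.0% of all tested genes, and the median log2 fold change was -0.14 against 0.01. Both Ripk3-/- LK libraries lay below both WT libraries for 24 members, or 46.2%, where the share over all tested genes was 19.9%. They lay above both for 5 members, or 9.62%, against 20.1%. With quantile normalization 33 were lower and the median was -0.04, beside 0.01 over all tested genes. Without library factors 32 were lower with a median of -0.05, but the median over all tested genes had moved to 0.095. With median-centered libraries 43 were lower and the median was -0.18, beside -0.02 over all tested genes. Leaving out replicate 1 of Ripk3-/- LK gave a median of -0.08 and leaving out replicate 2 one of -0.19.

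The largest LK differences were those of Eif4ebp1, Eif6, Eif3d, Eif5a and Eif3g. Eif4ebp1, the eIF4E inhibitor that mTOR switches off, was 184 and 153 CPM in WT and 97.8 and 138 in Ripk3-/- LK cells, without overlap (log2 fold change -0.53, SE 0.22, adjusted p = 0.60). Eif6 was 370.5 and 324 against 230.3 and 296 CPM and Eif5a 3953 and 3502 against 2667 and 3151, with log2 fold changes of -0.41 and -0.36. In each of these 3 genes the LSK difference had the same sign. Eif3d and Eif3g had LK log2 fold changes of -0.39 and -0.35. By role, 12 of the 13 eIF3 subunits were lower in Ripk3-/- LK cells, as were all 7 tested eIF2 and eIF2B genes and all 5 of the Eif5 to Eif6 group, and 5 of the 10 cap-binding and eIF4F genes. Of all 14 tested genes with an Eif4 symbol 9 were lower. The roles were not tested against each other. Eif4g1 and Eif4g2 lay above their WT values in each Ripk3-/- LK library, at 198 and 206 against 142 and 184 CPM and 980.0 and 974 against 793 and 897 CPM, with log2 fold changes of 0.32 and 0.21 (adjusted p = 0.87 and 0.88).

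An interaction term tested if the effect of genotype was unequal in LSK and LK cells. It passed for Eef1a1 and Eif1, which is 2 of 53 members, where 0.176% of the 15901 tested genes passed in that direction. Eef1a1 was 3599 and 4564 CPM in WT LK and 4057 and 4361 in Ripk3-/- LK cells, a log2 fold change of 0.05, and the LSK effect was lower than the LK effect by 0.94 on the log2 scale, an interaction of -0.94 (SE 0.19, limma adjusted p = 0.027). The WT LK replicates of Eef1a1 were the farthest apart of its groups. Eif1 was 681 and 686 CPM in WT LK and 571 and 563 in Ripk3-/- LK cells. Both Ripk3-/- values were lower in LK too, by less than in LSK, and the interaction was -1.04 (SE 0.21, limma adjusted p = 0.027). For Eef1a1 the call was lost without any 1 library other than replicate 2 of WT LK (adjusted p from 0.054 to 0.23), and for Eif1 without any 1 library other than replicate 2 of Ripk3-/- LSK (adjusted p from 0.053 to 0.19). Eef1g and Eif4a1, called in LSK, had interactions of -0.55 and -0.70 that did not pass (adjusted p = 0.39 and 0.29), so a difference between LSK and LK was not shown for them. The same held for Eif4enif1 and Eif3d, at 1.07 and 0.86 (adjusted p = 0.28 and 0.31).

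Genes that work with these factors, such as poly(A)-binding proteins, the mTOR complexes, the S6 and eIF4E kinases and the release factors, were followed as a separate list. Of its 38 genes 35 were tested, and their median log2 fold change was 0.19 in LSK and -0.05 in LK. None passed in LSK, where 8 had an unadjusted p under 0.05, as did 17.9% of all tested genes, and edgeR and DESeq2 also called none. None passed in LK with limma or edgeR, where 2 had an unadjusted p under 0.05, as did 6.56% of all tested genes. DESeq2 called 1 in LK, and among all 13949 tested genes it called 42 higher and 135 lower. Mtor itself had log2 fold changes of -0.06 in LSK and 0.04 in LK, and Larp1, which binds the pyrimidine tract at the start of such mRNAs, 0.02 and -0.05. Mknk2, a kinase that phosphorylates eIF4E, was singled out after its values were seen. It was 72.6 and 76.2 CPM in WT LSK and 123 and 130.3 in Ripk3-/- LSK cells, but 97.8 and 80.4 in WT LK and 40.8 and 51.5 in Ripk3-/- LK cells. Its groups did not overlap in either population and stood in opposite order. The log2 fold changes were 0.76 and -0.94 (adjusted p = 0.096 and 0.091), and their difference was 1.70 (SE 0.33, limma adjusted p = 0.021), where 0.182% of tested genes passed in that direction. That call was lost without any 1 library other than replicate 2 of WT LK (adjusted p from 0.051 to 0.21). Mknk2 was the gene that DESeq2 called in LK.

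Levels of LSK and LK cells were compared on 1 scale, CPM from the recovered reads with TMM factors over all 8 libraries. The difference of LSK minus LK is an average over WT and Ripk3-/- cells. Of the 53 tested members 48 had a negative and 5 a positive log2 difference of LSK minus LK cells, and 34 passed as lower and 0 as higher, where limma called 20.2% of all 15757 tested genes lower and 13.7% higher. The members' median log2 difference was -0.54 against 0.07 over all genes. These counts depended on the scale. Quantile normalization called 9 members lower and 4 higher, beside 12.5% and 11% of all genes, and plain CPM without library factors called 14 lower and 4 higher, beside 9.56% and 24.3%, with the median over all genes moved to 0.39. The calls that held under each of the 3 scalings were those of 8 members, Eif3b, Eif2b5, Eif3j, Eif4g1, Eif2b4, Eif1ad, Eif5a and Eif4g2, all lower in LSK, and these 8 were also lower under every other alternative tried.

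Eif3b, the eIF3 subunit at the mRNA entry site, had the largest difference between the populations on this scale, while under quantile normalization that of Eif2b5 was larger and that of Eif3j about equal. In CPM on the common scale it was 289 and 278 in WT LSK, 337 and 247 in Ripk3-/- LSK, 865 and 716 in WT LK and 585 and 703 in Ripk3-/- LK cells. All 4 LSK libraries lay below all 4 LK libraries, with a log2 difference of -1.31 (SE 0.13, limma adjusted p = 4.0e-08, and exact permutation p = 0.0286, the smallest that 4 against 4 libraries can give). Other eIF3 subunits such as Eif3f, at -0.01, did not pass, and Eif3f was called higher in LSK under both other scalings. Eif2b5 was 70.2 and 44.8 in WT LSK, 107 and 57.9 in Ripk3-/- LSK, 183 and 181 in WT LK and 128 and 163 in Ripk3-/- LK cells, and Eif2b4 was 69.7 and 66.1 in WT LSK, 64.7 and 67.9 in Ripk3-/- LSK, 149 and 112 in WT LK and 109.7 and 135 in Ripk3-/- LK cells. Their log2 differences were -1.28 and -0.89 (limma adjusted p = 1.7e-05 and 1.8e-04). For Eif4g1, the main scaffold of eIF4F, the values were 99.98 and 83.2 in WT LSK, 104 and 103 in Ripk3-/- LSK, 162 and 207 in WT LK and 225 and 236 in Ripk3-/- LK cells (log2 difference -1.07, limma adjusted p = 4.9e-06). Eif5a was 2316 and 2549.8 in WT LSK, 1909 and 1633 in Ripk3-/- LSK, 4506 and 3952 in WT LK and 3029.9 and 3610.2 in Ripk3-/- LK cells (log2 difference -0.85, limma adjusted p = 1.0e-06). In each of these the LSK and LK libraries did not overlap. Of the 10 called members with the largest differences the others were Eif3j at -1.11, Eif1ad at -0.86, Eif4g2 at -0.79, Eif3c at -0.78 and Eif2s2 at -0.74, and the calls of Eif2s2 and Eif3c failed with quantile normalization (adjusted p = 0.088 and 0.055). The rare Eif5a2 had 4.53 and 4.73 in WT LSK, 4.70 and 6.67 in Ripk3-/- LSK, 3.33 and 1.98 in WT LK and 4.39 and 0.640 in Ripk3-/- LK cells, so that all LSK libraries lay above all LK libraries, but its log2 difference of 0.90 did not pass (SE 0.46, limma adjusted p = 0.14). Eef1a1 was 4359 and 4628 in WT LSK, 2571 and 2307 in Ripk3-/- LSK, 4103 and 5149 in WT LK and 4609 and 4997 in Ripk3-/- LK cells. LSK lay below LK without overlap in the Ripk3-/- libraries, and WT LSK did not. The call of Eef1a1 as lower in LSK averages over these genotypes (log2 difference -0.51, limma adjusted p = 4.1e-04, exact permutation p = 0.14). Eif1 showed 1037 and 1173 in WT LSK, 408 and 487 in Ripk3-/- LSK, 776 and 774 in WT LK and 649 and 645 in Ripk3-/- LK cells, with the WT LSK libraries highest and the Ripk3-/- LSK libraries lowest. Under quantile normalization and under plain CPM, Eef1b2, Eef2k, Eif1 and Eif3f were called higher in LSK.

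**Figure D5:**
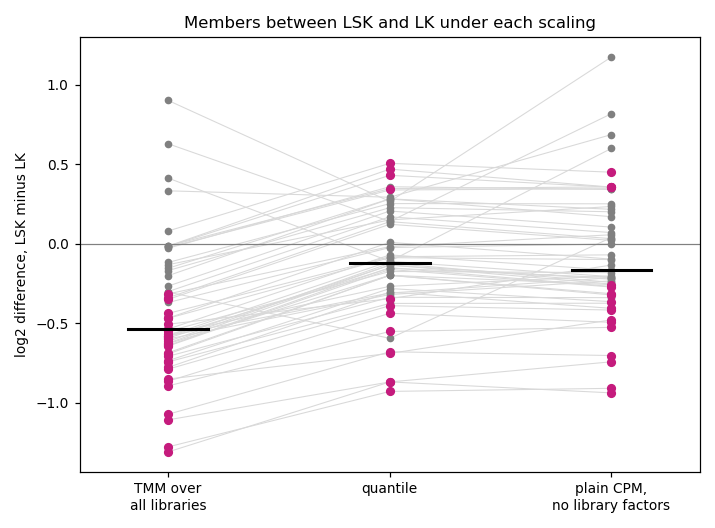
Log2 difference of LSK minus LK cells (y axis) for the 53 tested members under TMM factors over all libraries, quantile normalization, and plain CPM without library factors (x axis), with a line joining each gene, a black bar at the median and adjusted p under 0.05 colored. The median rises from -0.54 to -0.12 and -0.17, and the 8 members called under all 3 lie at the lower end.

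Levels of different genes were compared per kilobase of the longest coding transcript in GENCODE, as CPM per kb of the mean of each group. In WT LSK cells Eef1a1 was highest at 2854 CPM per kb, followed by Eif5a at 1929, Eif1 at 952 and Eef2 at 568. In Ripk3-/- LSK cells the order was Eef1a1 at 1544, Eif5a at 1399, Eef2 at 558 and Eif1 at 385. In WT LK cells Eif5a, at 2594 CPM per kb, stood above Eef1a1 at 2275, although their library values overlapped, and in Ripk3-/- LK cells Eef1a1 was above Eif5a at 2346 against 2024. The eIF3 subunits, which form 1 complex, ran from 8.98 CPM per kb for the loosely bound Eif3j to 367 for Eif3k in WT LSK cells. Among the eIF2B genes the range was 17.7 for Eif2b3 to 79.3 for Eif2b2. These values assume that the longest transcript is the one expressed.

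The members at the lower end were mostly tissue-restricted paralogs and Argonautes. Whether their low values come from low expression or from the counting was not tested. Of the Y-linked genes, Ddx3y was at 0 in all 8 libraries, while Uty was 16.8 to 31.6 CPM in the Ripk3-/- libraries. The 5 members not tested in LSK were Eef1a2, Eif4e1b, Eif4ebp3, Eif2c1 and Eif2c3, and Eif2d was also not tested in LK. The oocyte paralog Eif4e1b was listed at 0 in all LSK libraries and reached 1.83 CPM in 1 WT LK library. Of the Argonautes, Eif2c2 (Ago2, the slicer) was 23.6 and 27.6 CPM in WT and 16.6 and 35.7 in Ripk3-/- LSK cells. Eif2c4 (Ago4) was 4.17 and 5.39 CPM in WT and 0.723 and 0.489 in Ripk3-/- LSK cells, a log2 fold change of -1.84 (SE 0.63) on low counts that did not pass (adjusted p = 0.14). Its LK values of 0.340 and 1.37 CPM for WT and 2.28 and 0.497 for Ripk3-/- cells overlapped.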

How the data were processed

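The authors deposited 1 table per library for the 8 libraries, headed FPKM. The submitters' processing notes name TopHat and the mm9 build, and the counting tool and annotation are not given in the sources used here. In every deposited signal column each value (100% of those above 0) was a multiple of 1 step per library to within 0.01 of a whole number. The authors' signal values are thus CPM, read counts scaled with a TMM factor, with no gene length. Dividing by the step gave back the reads, and TMM factors recomputed within LSK and within LK differed from those implied by at most 7.8e-12. A single read was worth 0.0621 to 0.104 CPM, and a floor of 3 reads 0.186 to 0.311 CPM. These limits cover counting error only. The planned tests assumed FPKM and were kept on these values. The kit marks strand, but whether counting used it is not given.

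Members and lists were chosen with earlier results of these data known. Limma 3.58.1 (R 4.3.3, trended prior) was fitted to log2(CPM + 1) with 4 group means over all 8 libraries, for genes with a mean of at least 1 over the libraries compared, and p-values were adjusted by Benjamini-Hochberg over all tested genes with a threshold of 0.05. This scale understates the change of low genes. All tests were two-sided, and an exact permutation test of 2 against 2 libraries cannot give a p below 0.333. The alternatives were log2(CPM + 0.1), a minimum mean of 5 or none, quantile or median scaling, no prior trend, a replicate block, edgeR 4.0.16 and DESeq2 1.42.0 on the recovered reads, each population alone, leaving out each library, and, added after the data were seen, plain CPM without factors. The named genes were the called members (at most 10 for LSK against LK), the 5 with the largest change in each population, called pathway genes and a preset list of core factors. Other members were named after their values had been seen. Near-identical pseudogenes were found with blastn 2.17.0 in GENCODE M21, and start windows came from RefSeq GRCm38.p6, a build other than that of the files, so that no coordinates were joined. The fits were tested on simulated data for the LSK comparison only. There the changes were set in Ripk3-/- LSK, all genes had the same dispersion, and LSK and LK did not otherwise differ. The LK, interaction and LSK against LK tests were not covered by it.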

Additional observations from a re-analysis of the deposited data

Results flagged for a closer look

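The genotype effect differed between LSK and LK cells for 2 members in the test of that difference. For Eef1a1 the log2 fold change was -0.89 in LSK and 0.05 in LK, a difference of -0.94 (limma adjusted p = 0.027). Both Ripk3-/- LSK libraries were lower than both WT libraries, and the LK groups overlapped. For Eif1 it was -1.31 in LSK and -0.27 in LK, a difference of -1.04 (limma adjusted p = 0.027), with the Ripk3-/- libraries lower in both populations. The adjusted p over the alternatives ran from 0.0013 to 0.43 for Eef1a1, with 8 of 18 under 0.05, and from 2.4e-04 to 0.37 for Eif1, with 7 of 18 under 0.05. Eif1 has 20 and Eef1a1 18 near-identical pseudogenes, and the part of their reads was not tested.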

How the results depend on the processing

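No member called between genotypes in LSK or in the interaction reversed its direction under any alternative. Of the 34 members called between LSK and LK, 4 turned to a positive log2 difference that did not pass, namely Eif3e (0.12), Eif3m (0.0088) and Eif4a3 (0.14) with quantile normalization and Eef2 (0.056), Eif3e (0.02) and Eif4a3 (0.03) without library factors. The 4 members called between genotypes in LSK became 0 without a trend in limma's prior variance, and 1 to 4 when a library was left out. Members called in LK stayed at 0 in each fit. The 2 members with an interaction became 0 with no filter, 0 without the prior trend, 1 with quantile normalization, 1 with the replicate block and 1 with edgeR, and 0 or 1 when a library was left out. The 34 members that differed between LSK and LK became 13 with quantile normalization, 19 without the prior trend and 18 without library factors, and were fewer when a library was left out. With the replicate block the difference between LSK and LK was taken from the replicate 1 libraries alone, with a members' median of -0.47 against -0.54. That fit is therefore not a check of the same difference. The cause was not tested, apart from the loss of libraries. Median-centered libraries moved the median of all genes in LSK to -0.12 and that of the members to -0.11.

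Libraries of different groups were matched by replicate number only, and whether same-numbered libraries came from the same mice is not known. The replicate block matched WT with Ripk3-/- libraries within LSK and within LK. A pairing of LSK with LK libraries of the same genotype was not fitted. Deviations of same-numbered libraries correlated between -0.15 and 0.05 over the 6 pairs of groups, and the block within each population left 4 members in LSK and 0 in LK. For the single genes named, only those called in the main fit could lose a call under an alternative. In the interaction 30 values lost theirs, all of them of Eef1a1, Eif1 or Mknk2, the only named genes called there. In LSK 20 values lost theirs, all of them of Eef1a1, Eef1g, Eif1, Eif4a1 or Gm6900. A call was gained by 5 LSK values and by 2 in LK. In LK 1 value and between populations 3 lost theirs. With 2 libraries per group, most members' differences did not pass, which does not show that the groups are equal.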
